A study of Mus musculus with 7 samples.

Results

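Chromatin states were described at 7 genes for transcription factors that sustain self-renewal in blood stem cells and leukaemia: Meis1, Hlf, Mecom, Prdm16, Myb, Mycn and Sox4. The genes were chosen by name, and each was taken with 100 kb beyond both of its ends. All 7 were found among 21631 annotated protein-coding genes, and their windows held 12606 of the 13168874 bins of 200 bp on chromosomes 1 to 19 and X. The cells came from BALB/c mouse bone marrow and carried mutant CSF3R and mutant CEBPA, both brought in by retrovirus, so the treated and the control cells shared both mutant genes. The treated cells received 4 nM GSK-LSD1, an inhibitor of the histone demethylase LSD1, and the control cells received DMSO, each for 48 h. H3K4me1, H3K4me3 and H3K27Ac were measured by chromatin immunoprecipitation and sequencing in 1 library per mark and treatment, and the authors deposited 1 segmentation into 6 states, E1 to E6, per treatment. The sources used here do not say whether the cells were 1 clone or a pool of animals.

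These factors help to keep progenitors immature. Meis1 encodes a homeodomain protein that binds DNA together with HOX and PBX proteins and cooperates with HOXA9 in leukaemia. Hlf encodes a bZIP factor of the PAR family that marks haematopoietic stem cells and is fused to TCF3 in some human leukaemias. Mecom, also called Evi1, and Prdm16 are related zinc finger genes with a PR domain in their long forms, and both are activated by rearrangement in human myeloid leukaemia. Myb encodes a DNA-binding activator that progenitors need in order to divide, and its level drops as myeloid cells mature. Mycn is a MYC family gene that drives growth, and Sox4 encodes an HMG-box factor that cooperates with other leukaemia genes. LSD1 removes methyl groups from H3K4, so H3K4me1 is among its substrates, and it acts with the repressors GFI1 and GFI1B.

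All 7 genes lie on the minus strand, and their RefSeq promoter windows (GRCm38.p6, 250 bases before to 50 bases after the start) comprised 8 sequences, because Mecom has starts 497 kb apart. Some of these are shown for a run that the related genes Mecom and Prdm16 share, marked in capitals together with the piece of it in Myb. Mycn and Sox4 are shown because their start bins were E6 in GSK-LSD1 and E5 in DMSO, as described with the starts. At Mycn only 0.2 kb of the DMSO E5 in the window was E6 in GSK-LSD1. The first is the upstream start of Mecom, chr3:30509710-30510009. The second is Prdm16, chr4:154636824-154637123, and the third is Myb, chr10:21160935-21161234. In Mycn, chr12:12941787-12942086, the capitals mark the letters TGACAG, a MEIS-type motif. In Sox4, chr13:28953650-28953949, they mark GAGGAAG, a PU.1-type motif.
Mecom, upstream start: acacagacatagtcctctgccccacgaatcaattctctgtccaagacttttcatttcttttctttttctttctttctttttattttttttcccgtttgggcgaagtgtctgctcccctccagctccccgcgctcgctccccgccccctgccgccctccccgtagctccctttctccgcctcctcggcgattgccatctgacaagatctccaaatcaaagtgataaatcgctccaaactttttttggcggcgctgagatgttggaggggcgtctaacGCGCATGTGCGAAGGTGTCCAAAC
Prdm16: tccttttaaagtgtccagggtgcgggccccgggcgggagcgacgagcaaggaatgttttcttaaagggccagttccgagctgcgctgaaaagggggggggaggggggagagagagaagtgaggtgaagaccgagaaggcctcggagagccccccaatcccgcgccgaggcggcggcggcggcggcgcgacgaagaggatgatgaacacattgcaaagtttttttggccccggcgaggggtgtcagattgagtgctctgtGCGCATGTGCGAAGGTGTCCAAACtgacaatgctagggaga
Myb: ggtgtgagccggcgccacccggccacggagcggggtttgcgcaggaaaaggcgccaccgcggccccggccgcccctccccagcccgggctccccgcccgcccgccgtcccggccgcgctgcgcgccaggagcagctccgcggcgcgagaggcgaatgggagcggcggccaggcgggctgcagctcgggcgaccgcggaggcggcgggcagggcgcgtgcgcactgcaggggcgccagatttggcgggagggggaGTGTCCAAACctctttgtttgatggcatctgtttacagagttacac
Mycn: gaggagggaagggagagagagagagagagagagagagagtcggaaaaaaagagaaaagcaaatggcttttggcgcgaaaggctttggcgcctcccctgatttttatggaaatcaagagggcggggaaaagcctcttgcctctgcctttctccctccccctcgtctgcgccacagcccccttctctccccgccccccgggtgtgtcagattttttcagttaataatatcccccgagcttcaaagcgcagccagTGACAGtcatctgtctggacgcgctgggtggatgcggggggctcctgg
Sox4: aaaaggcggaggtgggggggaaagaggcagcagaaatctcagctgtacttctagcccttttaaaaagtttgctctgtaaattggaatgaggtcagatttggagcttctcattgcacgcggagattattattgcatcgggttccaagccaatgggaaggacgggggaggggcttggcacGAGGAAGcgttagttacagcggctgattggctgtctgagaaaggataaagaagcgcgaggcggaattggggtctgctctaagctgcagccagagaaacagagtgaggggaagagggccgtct

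Mecom and Prdm16 shared an unbroken run of 24 bases just after the start, the longest run shared by any pair of the 8 windows, beginning at base 27 of Mecom and at base 10 of Prdm16 counted from the start. Of 21045 promoter windows of protein-coding genes, 2 held this run, those of these genes. It ended at the last base of the Mecom window, so the shared stretch can be longer than what is shown. Myb held the last 10 bases of the run at base 5, a piece found in 11 of the 21045 windows (0.0523%). Motif letters were searched on both strands. TGACAG (MEIS) was found at the downstream start of Mecom and in Mycn, against 18.3% of all windows. GAGGAAG (PU.1) was found in Sox4, against 13.3% of all windows, and TGTGGT (RUNX) in Meis1, against 14.7%. None of the 8 windows held CACGTG (MYC, in 7.91% of all windows), TGATTNAT (PBX-HOX, 2.78%), CAACTG or CAACGG (MYB, 17.3%), TTACGTAA or TTATGTAA (PAR bZIP, 1.04%), TTGCGCAA or TTGCNNAA (C/EBP, of which the first overlaps the second, 10.3%), AATCANNGC (GFI1, 3.54%), AGATAA (bound by factors of the GATA family, 9.68%) or TTCNNNGAA (STAT, 7.76%). These matches describe letters in these windows only.

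The sources used here do not say which marks define each state. E3 covered most of the genome and is called background, all other states are called marked, and E5 and E6 are the states concentrated at gene ends. The same number may mean different marks under the 2 treatments, and a change in some of the cells cannot be told apart from a smaller change in all of them. With 1 segmentation per treatment, no test of treatment was possible and no p-value is given, and the depth is unknown. Bins are not replicates, so the 95% Wilson intervals cover counting error only. Ends of the myeloid and leukocyte markers Ptprc, Spi1, Cebpa and Prtn3 lay in E5 or E6 in both segmentations. Of the 10 markers of this list, 7 had such an end in GSK-LSD1 and 4 in DMSO, while Lyz2, Elane and Csf3r had none in either. Among other lineages the counts were 0 of 5 T cell, 2 of 4 B cell and 3 of 4 erythroid markers in both segmentations, and 1 of 4 for stroma and endothelium in both, so these states did not separate all lineages. Of 4 markers of unrelated tissues, 0 had one in GSK-LSD1 and 1 in DMSO. The part of other cell types in the results was not tested.

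Pooled over the 7 windows, marked chromatin covered more in GSK-LSD1, but most of that difference came from Mecom and the genes went different ways. Marked states covered 62.1% of the bins in GSK-LSD1 (95% Wilson interval 61.3 to 63.0) and 42.9% in DMSO (42.1 to 43.8), against 29.9% and 26.7% of all bins of the genome. Without the Mecom window the shares were 50.8% in GSK-LSD1 and 44.4% in DMSO, a difference of 6.41 percentage points, against 19.2 with it. E5 or E6 covered 6.32% (5.91 to 6.76) in GSK-LSD1 and 3.91% (3.59 to 4.26) in DMSO, a ratio of 1.62 that lay close to the 1.65 of the whole genome. E1 covered 12.3% (11.7 to 12.9) in GSK-LSD1 and 1.22% (1.04 to 1.43) in DMSO, a ratio of 10.1 against 9.78 genome-wide. Without the Myb window the E1 difference was 6.92 percentage points, against 11.1 with it, and the E5 or E6 difference was 1.58 percentage points, against 2.41 with it.

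A window was called higher or lower in a state where its area differed at least 1.5 times, or was at least 1 kb where the other segmentation had 0. By this rule 5 of the 7 genes had a higher E5 or E6 area in GSK-LSD1 (Meis1, Hlf, Mecom, Myb and Sox4), against 43.2% of all protein-coding genes. Prdm16 was called lower, against 0.73% of all genes, and Mycn passed neither limit. The count of 5 depended on the window and the states taken: it was 3 with 20 kb flanks, 2 inside the genes alone, 1 with E4 added to E5 and E6, 0 for E5 alone and 0 at a ratio of 2. E1 area was called higher at 6 of the 7 genes, all but Prdm16, against 67.3% of all genes. Marked area was called higher at Meis1 and Mecom, against 12.7% of all genes, and lower at Prdm16, against 9.53%. The median difference in E5 or E6 area was 6.4 kb over the 7 genes and 5.4 kb over all 21631. For E1 the medians were 22.2 kb and 8.4 kb, and for marked area 27.6 kb and 0 kb. These areas are not scaled to the window, which is longer around longer genes. In percentage points of the window, the medians were 2.51 and 2.21 for E5 or E6 and 6.54 and 3.55 for E1. For marked area they were 13.4 and 0. The broad state E2 covered more of 4 of the 7 windows in GSK-LSD1, whereas 23.9% of all genes had more of it.

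**Figure D1:**
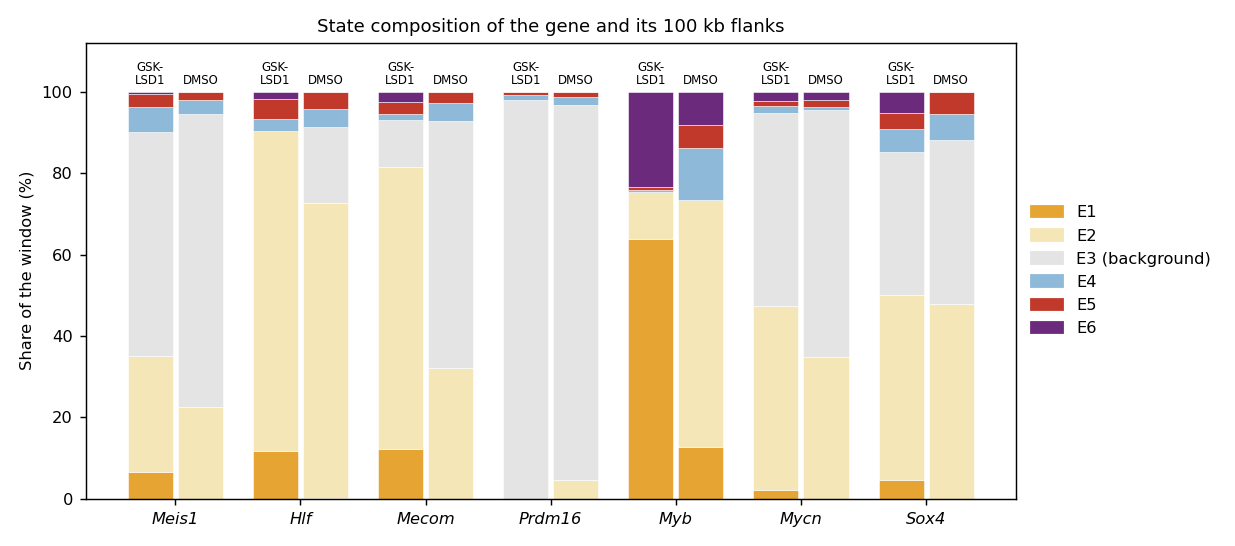
Stacked bars give the share (%) of each gene's window, the gene and 100 kb beyond both ends, in each of the 6 states, with GSK-LSD1 left of DMSO. Prdm16 is nearly all background in both, Myb has no background in either, and Mecom has 11.6% background in GSK-LSD1 against 60.5% in DMSO.

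Meis1 (chromosome 11, 18880428 to 19019651) was marked along its whole length in GSK-LSD1. Inside the gene, background took 0 kb of 139.4 kb in GSK-LSD1 and 51 kb in DMSO. In GSK-LSD1 a single marked block of 153.2 kb ran from 18871001 to 19024200, whereas the longest block in DMSO was 86.8 kb, ended inside the gene at 18962000 and left out the start. Outside the gene little was marked: 4.4 kb of the 100 kb before the start in GSK-LSD1 and 1.6 kb in DMSO, and 9.4 kb of the 100 kb after the end in GSK-LSD1 and 5.2 kb in DMSO. E5 or E6 area was 12.6 kb in GSK-LSD1 and 7.2 kb in DMSO, a ratio of 1.75, and most of it was E5 in both segmentations. A larger difference in the window share of E5 or E6 was found at 12312 of the 21631 genes. At Meis1 it was 1.59 percentage points, below the median of 2.21 over all genes. E6 appeared at 1 place in GSK-LSD1, a 2.2 kb region centred 70.3 kb into the gene, where DMSO had 0.6 kb of E5, and a 17 kb stretch of E1 lay beside it. E1 covered 22.2 kb of the window in GSK-LSD1, all of it inside the gene, and 0 kb in DMSO. The long non-coding RNA gene Gm16141 overlaps the first part of Meis1, so states near the Meis1 start belong to both.

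Hlf (chromosome 11, 90336535 to 90390917) lay in broadly marked chromatin in both segmentations. Its window of 254.6 kb held no background in GSK-LSD1 and 47.4 kb in DMSO. This background lay outside the gene and was E2 throughout in GSK-LSD1. E5 or E6 area was 17 kb in GSK-LSD1 and 10.6 kb in DMSO, a ratio of 1.60, and 5.2 kb of the 6.4 kb gained had been E4. Outside the region over the start, a pair of E5 regions lay 27.1 and 28.8 kb before the start in GSK-LSD1, of which DMSO had only the nearer one, and a 1 kb region of E5 and E6 lay 17.6 kb into the gene in GSK-LSD1, where DMSO had E4. Of the 4.6 kb of E6 in the window in GSK-LSD1, 4.4 kb lay at the neighbour Mmd, whose end at 90249276 was E6 in GSK-LSD1 and E5 in DMSO. E1 covered 30 kb in GSK-LSD1 and 0.8 kb in DMSO, in 11 stretches of at most 7.4 kb in GSK-LSD1. Most of it lay outside Hlf: in GSK-LSD1 5.8 kb was inside the gene, 6.8 kb before the start and 17.4 kb in the 100 kb after the end, which hold Mmd. Over bins nearer to Hlf than to any other protein-coding gene, the difference was 6.8 kb for E1, against 29.2 kb in the whole window, and 4 kb for E5 or E6, against 6.4 kb.

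Mecom (chromosome 3, 29951296 to 30509759) had the largest area of newly marked chromatin among the 7 genes. Inside the gene, background covered 0 kb of 558.6 kb in GSK-LSD1 and 344.2 kb in DMSO. Of all 21631 protein-coding genes, 2 had a larger loss of background inside the gene in kb, a rank not scaled to gene length. In the share of the window that was marked, 229 genes had a larger difference. The window held 2 marked blocks in GSK-LSD1, the longer of which spanned 653.2 kb from 29863601 to 30516800, against 10 in DMSO, the longest of 85.6 kb. Among protein-coding genes of at least 100 kb, 11.6% had no background inside the gene in GSK-LSD1 and some in DMSO. Of the 3 self-renewal genes of that length, Mecom and Meis1 were among them and Prdm16 was not. The newly marked chromatin at Mecom was E2, since 367.2 kb, or 80.0% of the DMSO background in the window, was E2 in GSK-LSD1. A further 73.4 kb of DMSO E2 was E1 in GSK-LSD1, and E1 covered 93 kb of the window in GSK-LSD1 and 0 kb in DMSO. The chromatin before the start behaved otherwise: marked states covered 24.4 kb of those 100 kb in GSK-LSD1 and 33.8 kb in DMSO, so the marked block ended just before the upstream start.

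E5 or E6 area around Mecom was 42.4 kb in GSK-LSD1 and 21.8 kb in DMSO, a ratio of 1.94 and the highest of the 7. In the window share of E5 or E6, 9603 of the 21631 genes had a larger difference. Of the 20.6 kb gained, 18 kb had been E4 and 2.6 kb had been E2. A part lay away from Mecom: the 100 kb before the start held 20.8 kb in GSK-LSD1 and 11.8 kb in DMSO, most of it an 11.8 kb region in GSK-LSD1 centred 90.3 kb before the start, over the neighbours Actrt3 and Mynn. Actrt3 was the only protein-coding neighbour of Mecom with an end that moved into E5 or E6, at 30597073, where GSK-LSD1 had E5 and DMSO had E4. Inside the gene E5 or E6 covered 15.6 kb in GSK-LSD1 and 9.4 kb in DMSO. Beyond the 3′ end it covered 6 kb in GSK-LSD1 and 0.6 kb in DMSO, of which 4.8 kb formed 1 region of E6 at 29930201 to 29935000, in no annotated gene.

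Prdm16 (chromosome 4, 154316122 to 154637360), the close relative of Mecom, had less of every marked state in GSK-LSD1 that it had in DMSO. Its window was 98.0% background in GSK-LSD1 and 92.1% in DMSO, and neither E1 nor E6 occurred in either segmentation. E2 covered 0 kb in GSK-LSD1 and 23.8 kb in DMSO, E4 covered 6.6 kb in GSK-LSD1 and 10 kb in DMSO, and E5 covered 3.8 kb in GSK-LSD1 and 7.2 kb in DMSO. The E5 ratio was 0.528. In the share of the window in E5 or E6, 70 of the 21631 genes had a larger decrease than Prdm16. The E2 lay wholly in the flanks. Inside the gene, background covered 314.6 kb in GSK-LSD1 and 312 kb in DMSO, so the inside of the gene was close to the same in both apart from its E5 regions. There were 2 of these in each segmentation, at the start and 302 kb into the gene, and the inner one was 1.6 kb long in GSK-LSD1 and 3 kb in DMSO. The non-coding genes 5930403L14Rik and Prdm16os lie by the start, so states there are shared with them. Arhgef16, a neighbour on the 3′ side, had an end at 154300107 that was E4 in GSK-LSD1 and E5 in DMSO.

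**Figure D2:**
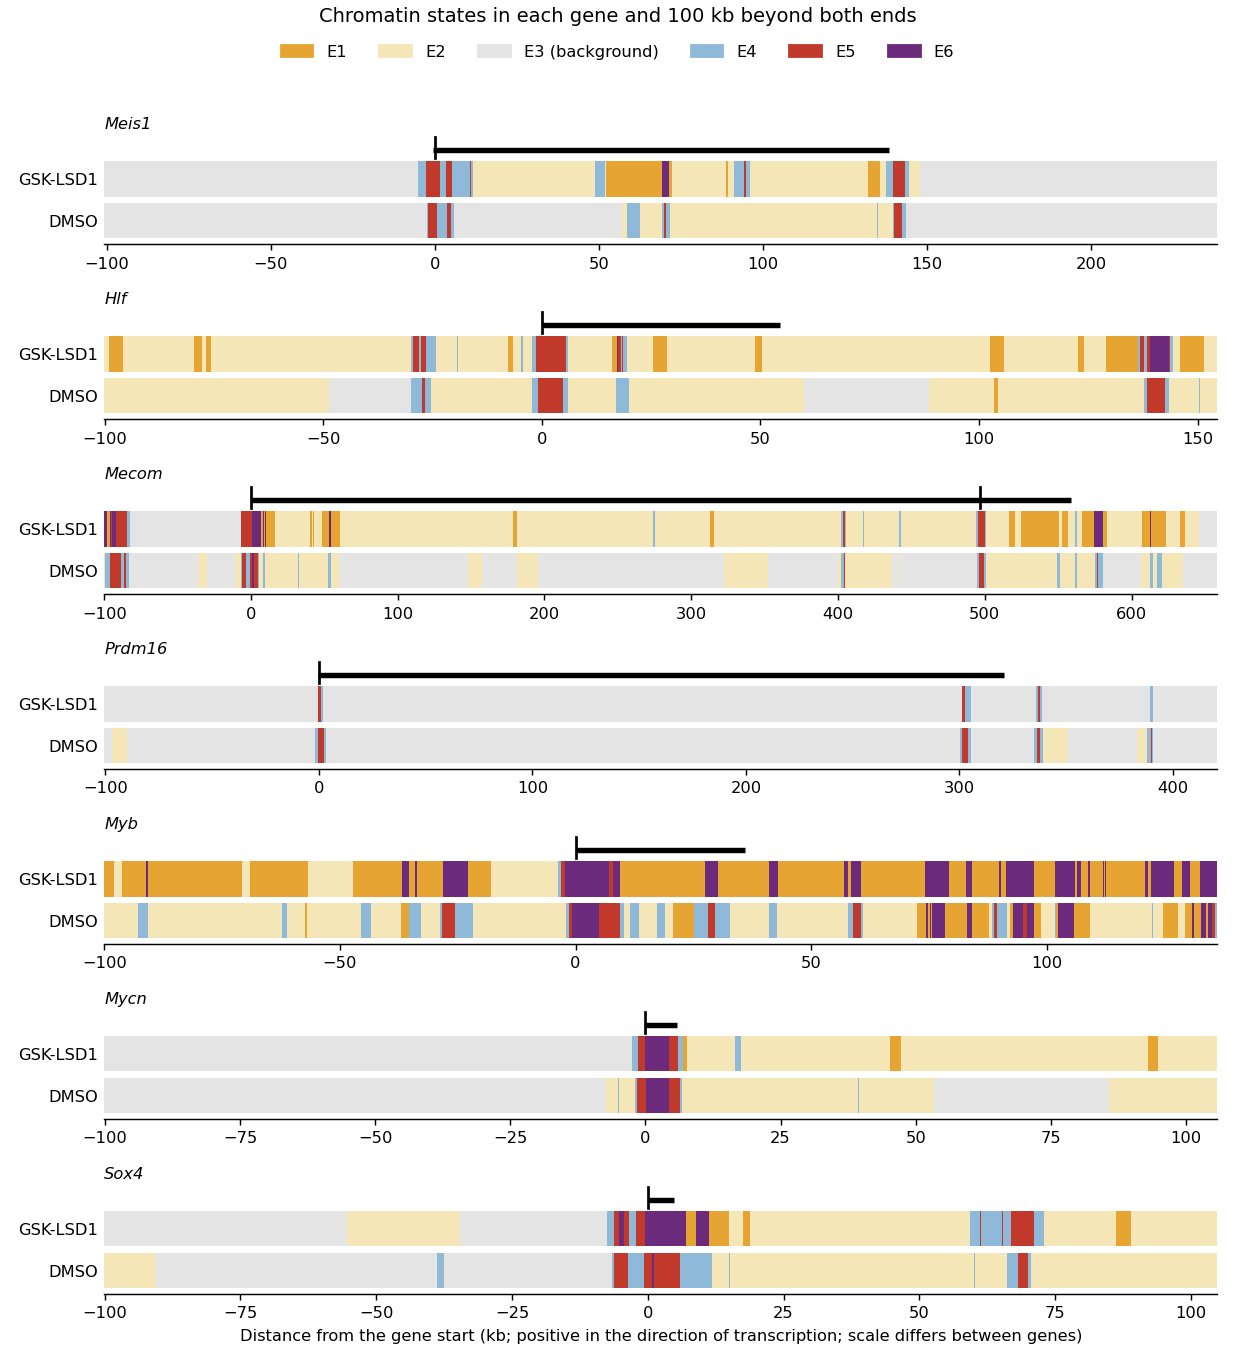
State maps of the 7 windows, GSK-LSD1 above DMSO, against distance from the gene start in kb, positive in the direction of transcription. The thick bar is the gene and the vertical ticks are its starts. Background fills 0 kb of the Mecom gene in GSK-LSD1 and 344.2 kb in DMSO, and E1 and E6 fill the 100 kb after the end of Myb in GSK-LSD1.

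Myb (chromosome 10, 21124930 to 21160984) had no background anywhere in its 236.2 kb window in either segmentation, and its chromatin differed by changes among marked states. E1 covered 150.8 kb in GSK-LSD1 and 30 kb in DMSO, which was 63.8% and 12.7% of the window. In percentage points, 19 of the 21631 protein-coding genes had a larger difference in E1. E2 covered 27.4 kb in GSK-LSD1 and 143.6 kb in DMSO, and 75.6% of the DMSO E2 was E1 in GSK-LSD1. E4 covered 0.8 kb in GSK-LSD1 and 30 kb in DMSO, and 68.7% of the DMSO E4 was E1 in GSK-LSD1. E5 covered 1.6 kb in GSK-LSD1 and 13 kb in DMSO, E6 covered 55.6 kb in GSK-LSD1 and 19.6 kb in DMSO, and 87.7% of the DMSO E5 was E6 in GSK-LSD1. Together E5 and E6 covered 57.2 kb in GSK-LSD1 and 32.6 kb in DMSO, a ratio of 1.75. In the window share of E5 or E6, 1350 genes had a larger difference. Over bins nearer to Myb than to any other protein-coding gene, the difference was 10.2 kb for E5 or E6, against 24.6 kb in the whole window, and 69.4 kb for E1, against 120.8 kb.

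The Myb window was uneven around the gene. The 100 kb after its end, which contain part of the neighbour Ahi1, were E1 or E6 over all 100 kb in GSK-LSD1 and over 37.2 kb in DMSO. There E5 or E6 covered 34.4 kb in GSK-LSD1, all of it E6, and 17.6 kb in DMSO. The 100 kb before the start had 10.6 kb of E5 or E6 in GSK-LSD1 and 4.2 kb in DMSO, and the gene itself had 12.2 kb in GSK-LSD1 and 10.8 kb in DMSO. The window held 22 E5 or E6 regions in GSK-LSD1 and 14 in DMSO, and 13 of the 22 overlapped none in DMSO, a count not made genome-wide. The longest of those 13 was 5 kb of E6 inside Ahi1, 124 kb from the Myb start, over an end of the long non-coding RNA gene Gm20149. The next were 2 kb of E6 centred 42.0 kb from the start and 1.8 kb of E6 centred 129 kb from it. On the other side, the main region before the start was 5.4 kb of E6 in GSK-LSD1, centred 25.5 kb away over ends of the non-coding genes Gm40608 and Gm33619. In DMSO it was 2.8 kb of E5. The end of Ahi1 at 21080429 was E1 in both segmentations.

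Mycn (chromosome 12, 12936093 to 12941836) differed least in E5 and E6. Its only E5 or E6 region in the window covered the whole gene in both segmentations and was 7.4 kb long in GSK-LSD1 and 8 kb in DMSO. E6 made up 4.6 kb of it in GSK-LSD1 and 4.4 kb in DMSO, so Mycn was already in E6 over most of its length without the inhibitor. In the window share of E5 or E6, 238 of the 21631 genes had a larger decrease, and 3.03% of all genes had any decrease. The flanks differed more than the gene. After the end, no background was left in GSK-LSD1, against 32.4 kb in DMSO, and E2 covered 93.4 kb in GSK-LSD1 and 66.4 kb in DMSO. Before the start, E2 covered 0 kb in GSK-LSD1 and 5.2 kb in DMSO. E1 was present in 3 short stretches in GSK-LSD1, 4.4 kb in all, and absent in DMSO. No other protein-coding gene ends in this window.

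Sox4 (chromosome 13, 28948919 to 28953699) differed mainly in which of E5 and E6 lay over it. The gene was E6 over its whole 5 kb of bins in GSK-LSD1, and in DMSO it was E5 over 4.6 kb and E6 over 0.4 kb. In its window E6 covered 11 kb in GSK-LSD1 and 0.4 kb in DMSO, while E5 covered 8 kb in GSK-LSD1 and 10.8 kb in DMSO. Together they covered 19 kb in GSK-LSD1 and 11.2 kb in DMSO, a ratio of 1.70, and 6.8 kb of the 7.8 kb gained had been E4. A larger difference in the window share of E5 or E6 was found at 7620 of the 21631 genes. For E6 alone 7363 genes had a larger difference, and 72.8% of all genes had more E6 in GSK-LSD1. The longest E5 or E6 region without overlap in DMSO was 2.4 kb of E6 centred 10.1 kb from the start, past the end of the gene. E1 covered 9.4 kb in GSK-LSD1 and 0 kb in DMSO. Another E5 region, at an end of the long non-coding RNA gene 2610307P16Rik 69.0 kb away, was 4.2 kb long in GSK-LSD1 and 2 kb in DMSO. The non-coding genes Gm46405 and Gm46406 overlap or adjoin Sox4, so the states over it are shared with them.

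The starts were next compared. All 8 annotated starts of the 7 genes lay in E5 or E6 in both segmentations, which held for 53.2% of the 17274 protein-coding genes with a RefSeq start. The region over the start, an unbroken run of E5 or E6 bins, was longer in GSK-LSD1 at 5 of the 7 genes by their first start, against 89.3% of the 9194 genes with such a region in both. It was shorter at Prdm16 and Mycn, against 6.47% of those genes. Over the 9194 genes the median length was 5.2 kb in GSK-LSD1 and 3.6 kb in DMSO. The region over the upstream start of Mecom was 13.4 kb long in GSK-LSD1 and 5.8 kb in DMSO, where a separate region of 2.4 kb lay further upstream, at 30513401 to 30515800. At the downstream start of Mecom, from which the shorter EVI1 form is made, it was 5 kb in GSK-LSD1 and 3.6 kb in DMSO. Sox4 had 9.2 kb in GSK-LSD1 and 6.6 kb in DMSO, Meis1 had 4.4 kb in GSK-LSD1 and 3 kb in DMSO, and Hlf had 6.8 kb in GSK-LSD1 and 5.8 kb in DMSO. Myb already had a long region and had 12.4 kb in GSK-LSD1 and 10.8 kb in DMSO, with the same edge inside the gene at 21151601 and a further edge before the start, 3.02 kb away in GSK-LSD1 and 1.42 kb in DMSO. At Prdm16 it was 1.4 kb in GSK-LSD1 and 2.6 kb in DMSO. Its edge before the start was the same in both, at 154637200, and the whole difference lay inside the gene.

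**Figure D3:**
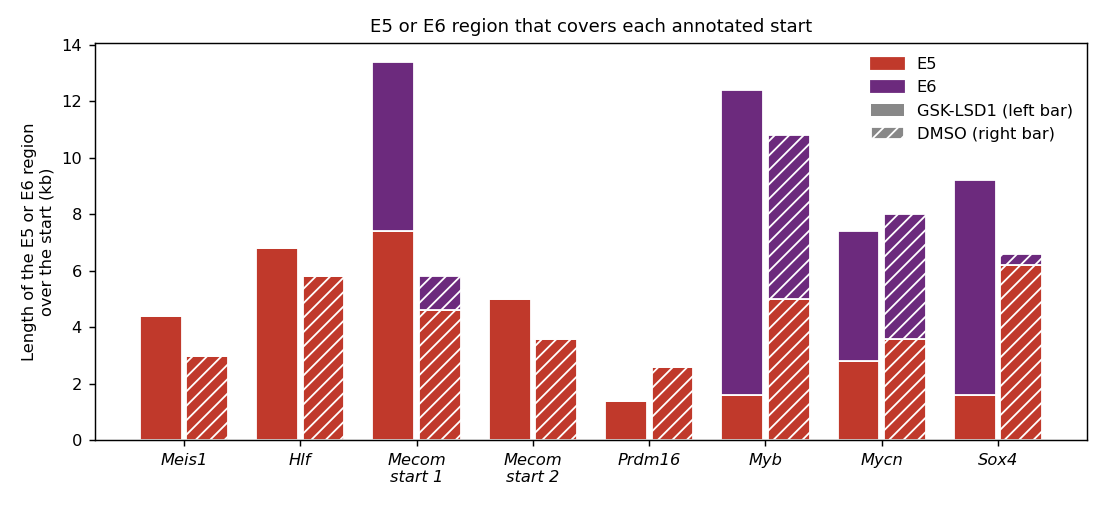
Length in kb of the E5 or E6 region that covers each annotated start, split into E5 and E6, with GSK-LSD1 left of DMSO (hatched); each bar is 1 segmentation. Prdm16 and Mycn are the only starts with the shorter bar in GSK-LSD1, and the Sox4 region is 7.6 kb of E6 in GSK-LSD1 against 0.4 kb in DMSO.

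E6 at the starts divided the genes. The start bin was E6 in both segmentations at Myb, E6 in GSK-LSD1 and E5 in DMSO at Mycn and Sox4, and E5 in both at Meis1, Hlf, Prdm16 and both starts of Mecom. Mycn and Sox4 differed in extent. At Mycn only the edge of the E6 moved, since the region over the start held 4.6 kb of E6 in GSK-LSD1 and 4.4 kb in DMSO. At Sox4 that region held 7.6 kb of E6 in GSK-LSD1 and 0.4 kb in DMSO. Of the DMSO E5 in each window, the share that was E6 in GSK-LSD1 was 87.7% at Myb, 64.8% at Sox4, 32.1% at Hlf, 32.0% at Mecom, 8.33% at Meis1, 5.56% at Mycn and 0% at Prdm16. The genome-wide share was 51.3%, so Myb and Sox4 lay above it and the other 5 below it. Of the E4 around the genes, 18.0% kept its number against 26.8% genome-wide, and 33.7% was E1 in GSK-LSD1 against 21.6% genome-wide. Both shares leaned on Myb, which supplied 20.6 kb of the 37.4 kb of E4 that was E1 in GSK-LSD1. Of the 30 kb of DMSO E4 at Myb, 0 kb kept its number.

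Across the 7 windows, 60.7% of bins had 1 number in GSK-LSD1 and DMSO alike, against 81.8% of the genome. These shares also depended on how much background there was. In DMSO it covered 57.1% of the windows and 73.3% of the genome, and genome-wide 91.0% of it kept its number. By gene, the share of bins with 1 number in both ran from 28.7% at Myb to 93.5% at Prdm16. It was 33.5% at Mecom, the longest window at 758.6 kb. Background that was E2 in GSK-LSD1 accounted for 507.2 kb, or 35.3% of the DMSO background of these windows, against 8.30% genome-wide. Mecom alone supplied 367.2 kb of it, Hlf 47.4 kb, Meis1 41 kb, Mycn 32.4 kb, Sox4 19.2 kb, and Prdm16 and Myb none. DMSO E2 that was E1 in GSK-LSD1 accounted for 235 kb, of which Myb supplied 108.6 kb and Mecom 73.4 kb. E5 or E6 was gained over 66 kb, lost over 5.2 kb and kept over 93.4 kb. Of the gained area, 43.6 kb had been E4, 12.2 kb E2, 9.6 kb E1 and 0.6 kb background. All of the part gained from E1 was at Myb. Of the 5.2 kb lost, Prdm16 had 3.4 kb, Myb 1.2 kb and Mycn 0.6 kb.

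The E5 or E6 regions numbered 57 in GSK-LSD1 and 36 in DMSO. Of the 57, 29 overlapped no such region in DMSO, and of the 36, 3 overlapped none in GSK-LSD1. Such regions were not counted genome-wide, so these counts cannot set the 7 windows apart from other loci. E5 or E6 area was larger in GSK-LSD1 by a ratio of 1.62 here and 1.65 genome-wide. Those 29 were short and made up 27.6 kb, so more of the gained area lay at the edges of regions that DMSO had too. Of the 57 regions, 20 touched the genes themselves, 27 lay after their ends and 10 before their starts, and 14 contained a gene end, non-coding genes included. Of the 36 in DMSO, 13 touched the genes, 17 lay after their ends and 6 before their starts, and 13 contained a gene end. Pooled E6 covered 3.88% of the windows in GSK-LSD1 and 1.02% in DMSO, a ratio of 3.82. Genome-wide it covered 2.08% in GSK-LSD1 and 0.217% in DMSO, a larger ratio of 9.58. E6 without E5 made up 30 of the 57 regions in GSK-LSD1 and 7 of the 36 in DMSO. Of those 30, 21 were in the Myb window and 7 in the Mecom window. The 3 DMSO regions without overlap in GSK-LSD1 were 0.4 kb in Megf6 beside Prdm16 and 0.4 and 0.6 kb in Ahi1 beside Myb. All 3 were E4 or E1 in GSK-LSD1.

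**Figure D4:**
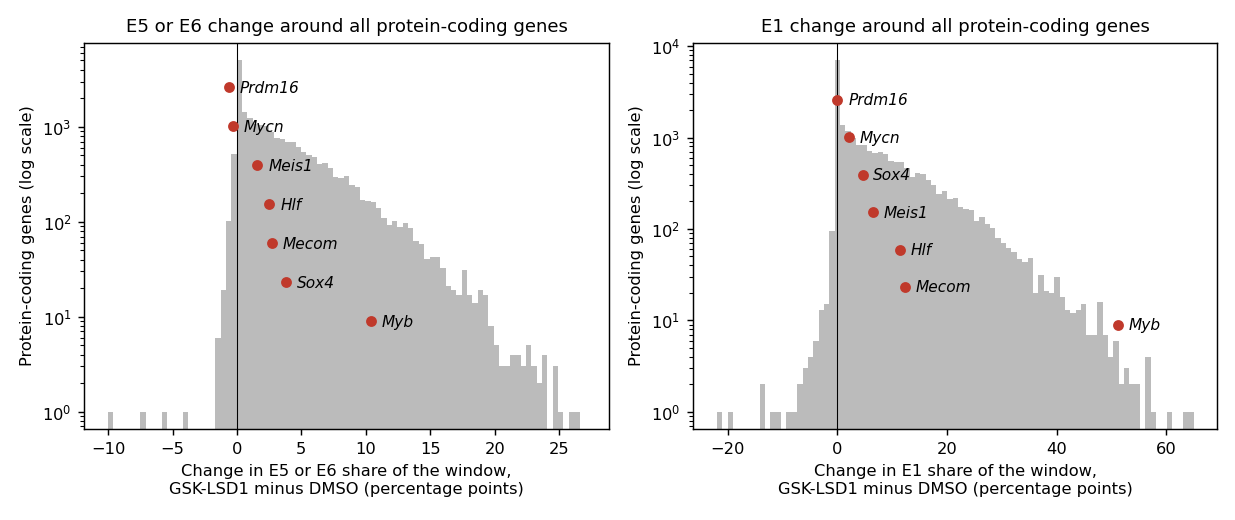
Grey histograms give, for 21631 protein-coding genes, the change in the share of the window in E5 or E6 (left) and in E1 (right), GSK-LSD1 minus DMSO, in percentage points, with gene counts on a log scale. Red points mark the 7 genes at their values, and their height only separates the names. Prdm16 and Mycn lie below 0 for E5 or E6, and Myb lies at 51.1 percentage points for E1.

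Relatives and partners of these factors were examined in the same windows of 100 kb. Of 33 such genes, 8 were called higher in E5 or E6 area and 0 lower, against 43.2% and 0.73% of all genes, and the median difference was 6.8 kb. The TALE cofactors of MEIS1 had 1 of 8 higher, the PAR and related bZIP genes 1 of 3, the PRDM genes 2 of 8, the MYB family 0 of 2, the MYC network 3 of 10 and the SOXC genes 1 of 2. E1 area was called higher at 27 of the 33, against 67.3% of all genes. The 2 largest differences were at Mlx, a partner in the MYC network (72.8 kb in GSK-LSD1 and 45.2 kb in DMSO), and Mxd1, an antagonist of MYC (44.6 kb in GSK-LSD1 and 23.2 kb in DMSO). The smallest included Meis2, which like Prdm16 and Mycn had less in GSK-LSD1 (6.8 kb, against 8.4 kb in DMSO), and Sox11, which had 0 kb in both. Myc, given here as a relative of Mycn and not for its value, had 13.2 kb in GSK-LSD1 and 11.2 kb in DMSO, with 22.8 kb of E1 in GSK-LSD1 and 0 kb in DMSO.

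Likeness was measured as the mean absolute difference over 12 shares, those of 6 states in 2 segmentations, which is a description with no test. Among the 7 genes, Mycn and Meis1 were most alike, at 5.45 percentage points, and Myb and Prdm16 least alike, at 31.9. Mecom and Prdm16, which share the 24-base run at their starts, differed by 19.7. Outside the group, the gene closest to Prdm16 was Bmp2, at 0.114 percentage points, and the gene closest to Myb was Socs1, at 1.17. The closest to Mecom was Dcun1d5 (1.31), to Meis1 Il22 (0.736), to Hlf 4930522H14Rik (0.799), to Mycn Atp8a2 (1.15) and to Sox4 Rida (0.793).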

How the data were processed

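The authors deposited 1 table of genome segments for GSK-LSD1 and 1 for DMSO, each giving a state label, E1 to E6, per segment on a 200 bp grid. Each was built from that treatment's 3 mark libraries, per the labels. There were 7 libraries in all, 6 immunoprecipitated and 1 input. The submitters' processing notes name Bowtie and mm10 (GRCm38). The sources used here do not name the segmentation tool, how signal was made binary, whether the input entered, or the marks of a state.

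Each gene was taken from RefSeq (GRCm38) with 100 kb beyond both ends, and bins in each state were counted with Python 3.11.15, numpy 2.4.6 and pandas 2.3.3. The same was done for 21631 protein-coding genes on chromosomes 1 to 19 and X. The area counts were checked by planting E5 bins at random in the DMSO segmentation and counting them again. The gene table holds gene bounds only, so exons and introns were not analysed here. Intervals are 95% Wilson intervals. All 7 genes are described. In the flanks, named items are protein-coding neighbours whose end moved into or out of E5 or E6, the longest regions and the 3 longest regions without overlap in DMSO, and other neighbours were named where they overlap these regions. For relatives, the 2 largest and the smallest differences were named, apart from an item that is not reported here. The genes, lists and alternatives were chosen with earlier results of these data known.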

Additional observations from a re-analysis of the deposited data

How the results depend on the processing

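The count of genes with a higher E5 or E6 area, 5 as reported, was 3 with flanks of 20 kb (Meis1, Mecom and Sox4), 2 inside the genes alone (Meis1 and Mecom), 0 for E5 alone, 1 with E4 added (Meis1) and 0 at a ratio of 2. It was 5 with flanks of 50 kb, with bins nearest to the gene itself, with 1-bin segments removed and for any larger area. The difference in E5 or E6 share, 2.41 percentage points as reported, was 0.928 inside the genes, 0.476 with E4 added, -0.452 for E5 alone and 1.58 without the Myb window, which was chosen after seeing the data. For E5 alone the difference in area was -11.4 kb at Myb and -2.8 kb at Sox4, and with E4 added it was -1.6 kb at Mecom, -4.6 kb at Myb and 1.4 kb at Mycn. For E5 alone, 11.4 kb of DMSO E5 at Myb and 7 kb at Sox4 was E6 in GSK-LSD1 and so left the set. With E4 added, 20.6 kb of DMSO E4 at Myb and 9.4 kb at Mecom was E1 in GSK-LSD1, and at Mycn E4 covered 3.2 kb in GSK-LSD1 and 1.2 kb in DMSO. The difference in E1 share, 11.1 percentage points as reported, was 10.02 with flanks of 50 kb, 10.4 with flanks of 20 kb, 9.63 inside the genes, 9.94 with bins nearest to the gene itself, 13.9 for E1 and E6 together and 6.92 without the Myb window. The count of genes with a higher E1 area, 6 as reported, was 5 with flanks of 20 kb, where Mycn was not called. It was 4 inside the genes alone, where Mycn and Sox4 had a difference of 0 kb. Under the other alternatives run it stayed at 6. The difference in marked share, 19.2 percentage points as reported, was 6.41 without the Mecom window and 21.2 without the Myb window, also chosen after seeing the data. Of 91 values for single genes under the alternatives, 25 were equal to the reported one, 61 differed in size and 5 changed sign. With bins nearest to the gene itself, the differences at Hlf and Myb were smaller by over 1.5 times for both E1 and E5 or E6. No paired analysis was possible because each treatment has 1 segmentation. For the same reason no spread between samples is known, and no replicate could be left out.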
